A study of Mus musculus with 16 samples.

Results

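Heat shock chaperones were measured in sorted cells of the mouse olfactory mucosa, in GFP+ and GFP- cells of animals exposed to citrus accord or to filtered air. The family was taken as 10 named genes, and a probe set counted as a member where the platform annotation gave it one of those symbols. This gave 8 probe sets, 1 for each of 8 genes, of 19572 with 1 gene symbol and 28846 in the table. No symbol in the table matched Hspa8, the constitutive HSP70, or Hsp90ab1, the beta form of cytosolic HSP90, and these 2 genes are not analysed here.

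All mice carried the S100a5-tauGFP allele, a green fluorescent reporter under control of S100a5, whose transcription in olfactory sensory neurons (OSNs) follows their activity. The 24 mice were of both sexes and 7 to 12 weeks old, and each lived alone for 40 h in a chamber with clean air flowing at 3.1 L per minute. After the first 26 h they received 10 s pulses every 20 min of either 100% citrus accord, an odorant mixture, or filtered air, the vehicle. The dissociated mucosa was sorted into GFP+ and GFP- cells, and each of the 16 Clariom S arrays holds the cells of 3 mice. The 4 groups are citrus GFP+, citrus GFP-, vehicle GFP+ and vehicle GFP- cells, with 4 arrays each. GFP+ and GFP- arrays that share a stimulus and a number were taken as the 2 gates of 1 pool of mice, giving 4 citrus and 4 vehicle pools, because 24 mice make 8 such pools. The labels do not say this outright. The gate follows the reporter and is not a pure cell type. The 14 markers of mature OSNs averaged 16.45 to 16.67 (log2) on GFP+ arrays and 16.14 to 16.42 on GFP- arrays, without overlap. In each stimulus 3 of the 14 were called higher in GFP+ cells, beside 7.44% of all probe sets in citrus and 9.05% in vehicle.

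Heat shock proteins bind unfolded or partly folded proteins and keep them from clumping, helped by co-chaperones that steer their ATP cycle. Some are made at all times, whereas others are switched on within minutes to hours when proteins unfold, after heat, oxidants or tissue dissociation. The switch is the transcription factor HSF1, which as a trimer binds the heat shock element, an array of inverted GAA units in the promoter. In olfactory research the family is known through Hsc70t, the product of Hspa1l, which helps some odorant receptors reach the surface of cultured cells.

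The promoters of the most inducible members are shown first, because the pair Hspa1a and Hspa1b gave the widest range of values and their control regions are almost the same. RefSeq promoter windows (GRCm38.p6, 250 bases before to 50 after a gene's start) matched 7 of the 8 measured members, Hsp90aa1 being the exception. The 250 bases before the start of Hspa1a (chr17:34972157-34972406, minus strand) and of Hspa1b (chr17:34959239-34959488, minus strand) differ at 3 of 250 positions and are 98.8% identical. Capitals mark 2 facing units of a heat shock element, GAANNTTC, with the first base at -104 from the start in both.
Hspa1a: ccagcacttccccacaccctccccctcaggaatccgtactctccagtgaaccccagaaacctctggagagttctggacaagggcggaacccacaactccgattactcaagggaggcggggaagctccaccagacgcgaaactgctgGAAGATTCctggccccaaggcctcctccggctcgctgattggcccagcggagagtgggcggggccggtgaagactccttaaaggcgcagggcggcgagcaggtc
Hspa1b: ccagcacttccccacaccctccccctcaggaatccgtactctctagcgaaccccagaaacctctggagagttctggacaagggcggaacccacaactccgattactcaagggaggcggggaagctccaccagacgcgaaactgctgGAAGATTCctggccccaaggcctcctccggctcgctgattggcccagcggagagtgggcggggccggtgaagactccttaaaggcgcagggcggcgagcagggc

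The search used 2 facing units (GAANNTTC or TTCNNGAA), 3 units (GAANNTTCNNGAA or TTCNNGAANNTTC) and 4 units (GAANNTTCNNGAANNTTC or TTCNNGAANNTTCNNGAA), with both strands covered and longer forms containing the shorter ones. Windows with 2 units made up 15.1% of all 32851 windows, those with 3 units 0.603% and those with 4 units 0.0244%. Counted by gene, as the members are, 17.0%, 0.662% and 0.0296% of 27025 genes had a window with 2, 3 and 4 units. Of the 7 members, 6 held 2 units, 3 held 3 units (Hsph1, Hspd1 and Hspe1) and 2 held 4 units (Hspd1 and Hspe1). Hsph1, Dnajb1 and Hspd1 had 2 windows each, for 2 starts, and a gene counted where either window matched. Hspd1 and Hspe1 lie head to head and read the same 4 units from opposite strands. These begin at -89 from the start of Hspe1 and at -144 from 1 of the 2 starts of Hspd1. The other window of Hspd1 and both windows of Dnajb1 held none of these forms. Capitals in the stretches below mark the 4 units shared by Hspd1 and Hspe1 (chr1:55088053-55088082, plus strand) and 2 units of Hspb1 starting at -117 (chr5:135887791-135887820, plus strand). For Hsph1 they mark 2 units (chr5:149636351-149636380, minus strand), starting at -33 from 1 of its 2 starts and at -54 from the other. The 3 units of Hsph1 lie after both starts. Only exact units were searched for, so units with a changed letter are not counted. A match describes letters in a window and is no measured binding site.
Hspe1: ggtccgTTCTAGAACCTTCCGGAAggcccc
Hspb1: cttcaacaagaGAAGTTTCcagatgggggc
Hsph1: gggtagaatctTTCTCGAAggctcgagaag

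Values are log2 signals on the deposited scale, and levels of different genes are not set against each other. Across arrays, the control probes without a target had a 95th percentile of 8.75 to 9.71 and a median of 4.84 to 5.37. Of the 8 members, 7 were above that percentile on every array except vehicle GFP+ pool 1, where Hspa1a and Hspa1b were under it, and vehicle GFP+ pool 3, where Dnajb1 was. Hspb1 was under it on all 16 arrays and under the median on 15. Its values are given as signal differences within background.

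Hspa1a (chr17:34969359-34972156) and Hspa1b (chr17:34956429-34959238) are the intronless genes of stress-inducible HSP70, the chaperone that refolds denatured proteins. Hspa1a was at 12.75, 12.23, 10.03 and 12.78 in citrus GFP+ cells of pools 1 to 4, against 15.13, 14.81, 12.40 and 16.03 in citrus GFP- cells of the same pools. In vehicle it was at 8.61, 11.36, 11.27 and 12.07 in GFP+ cells, against 11.62, 12.67, 13.28 and 15.08 in GFP- cells. The arrays of the gates overlapped in both stimuli, and yet in each of the 8 pools the GFP+ array was the lower one. The differences within pools (GFP+ minus GFP-) were -2.38, -2.57, -2.37 and -3.25 in citrus and -3.01, -1.31, -2.02 and -3.01 in vehicle. Their mean over the 8 pools was -2.49 ± 0.63 (SD). In vehicle pool 1 the GFP+ signal of both HSP70 genes was under the control percentile, so that difference is limited by background, and without that pool the mean of Hspa1a was -2.42 ± 0.64 (SD, n = 7). Of all tested probe sets, 11.2% were lower in GFP+ cells in all 8 pools. Citrus pool 3 was the low one of its stimulus in both gates, and vehicle pool 4 the high one of its stimulus in both gates.

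Hspa1b had its lowest array in the same pool as Hspa1a in every group. It was at 12.57, 11.89, 9.43 and 12.23 in citrus GFP+ cells, against 14.70, 14.44, 11.35 and 15.77 in citrus GFP- cells, and at 8.21, 10.86, 10.92 and 11.67 in vehicle GFP+ cells, against 10.99, 12.09, 12.58 and 14.57 in vehicle GFP- cells. The mean difference over the 8 pools was -2.34 ± 0.75 (SD), and all 8 were below 0. Without vehicle pool 1 it was -2.28 ± 0.78 (SD, n = 7). After group means were removed the 2 genes correlated at r = 0.99 over the 16 arrays, which share 8 pools. Because the copies are nearly identical in sequence, their probe sets may read each other's mRNA, so the pair is better read as 1 measurement than as 2.

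**Figure D1:**
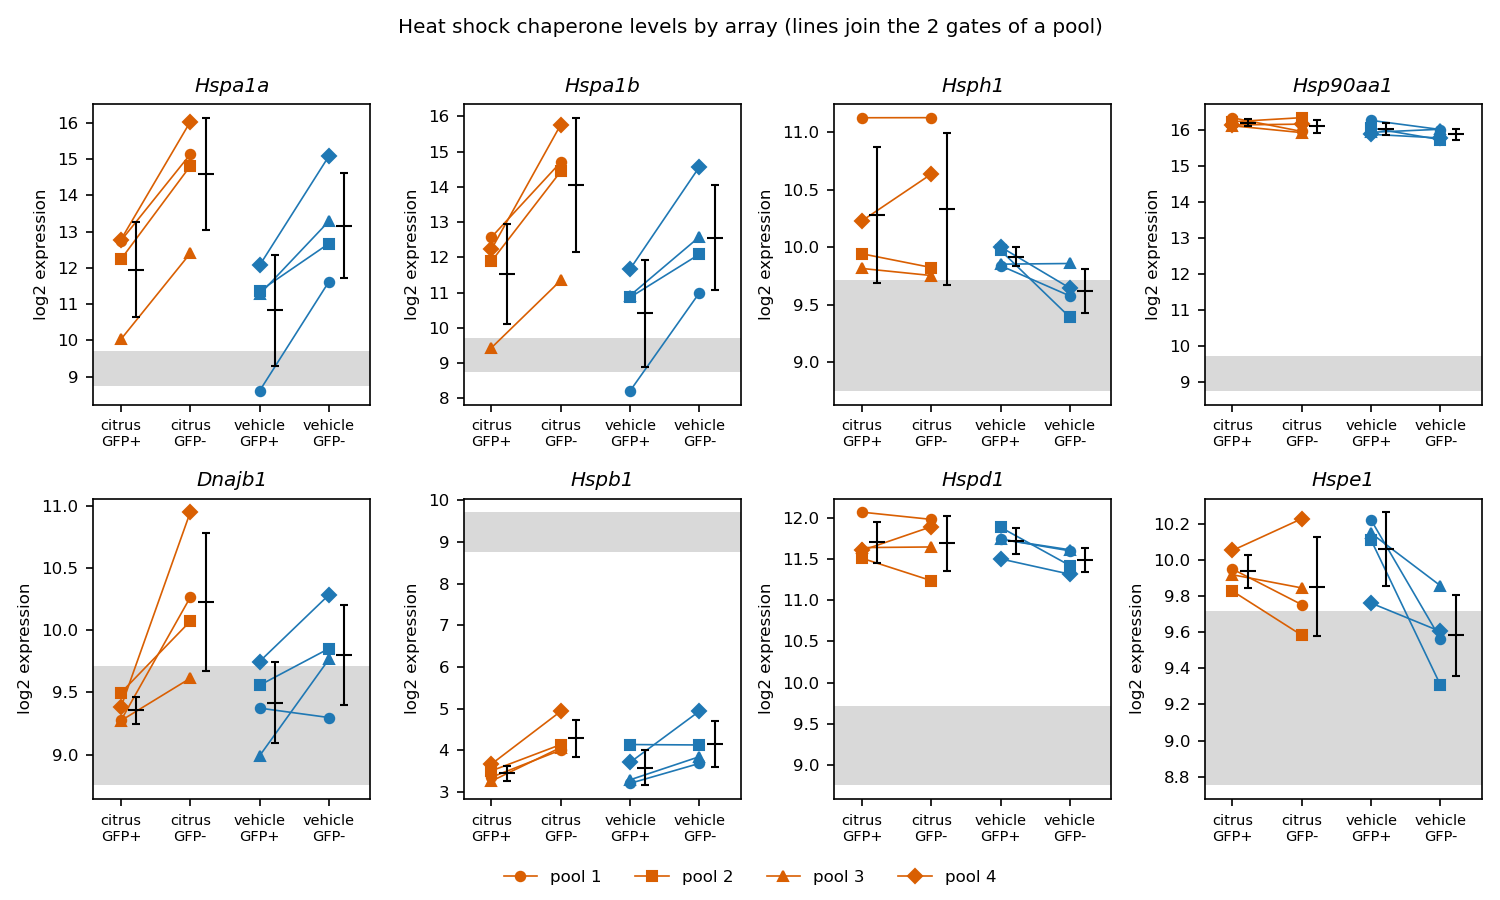
Log2 signal of the 8 measured members on each of the 16 arrays, by stimulus and gate. Orange marks citrus and blue vehicle, marker shapes mark pools 1 to 4, thin lines join the 2 gates of a pool, black bars give the group mean ± SD (n = 4) and the grey band is the range over arrays of the 95th percentile of control probes. Every line of Hspa1a and Hspa1b runs lower in GFP+ cells, while group SDs are 1.30 to 1.90, and Hspb1 lies under the band throughout.

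Test results for the HSP70 pair turned on whether the pool was taken into account. In citrus, the linear model (limma, no term for the pool) gave Hspa1a a difference of -2.64 ± 0.87 (SE), 6.25-fold lower in GFP+ cells on the deposited scale, with an adjusted p of 0.0428. Hspa1b had a difference of -2.53 ± 0.95 with an adjusted p of 0.0760. In vehicle, the same model gave -2.34 ± 0.87 for Hspa1a (adjusted p = 0.0710) and -2.14 ± 0.95 for Hspa1b (adjusted p = 0.131). With the pool as a block, which compares the gates within pools, the differences are the same by construction and the standard error became 0.27 for Hspa1a and 0.31 for Hspa1b. Both genes then passed in both stimuli: limma's adjusted p was 3.25e-05 in citrus and 0.000101 in vehicle for Hspa1a, and 0.000136 in citrus and 0.000548 in vehicle for Hspa1b. With 1 of the 8 pools left out in turn, a check added after the data were seen, both genes passed in every such fit. A fit without a pool of the other stimulus keeps the difference by construction, so only the 4 pools of the same stimulus can move it. The highest adjusted p, limma's 0.00531, was that of Hspa1b in vehicle without vehicle pool 4. Without the block, the citrus call of Hspa1a was lost on leaving out citrus pool 1 (adjusted p = 0.0914), citrus pool 2 (0.121), citrus pool 4 (0.140), vehicle pool 2 (0.0613) or vehicle pool 3 (0.0622), and with limma's trended prior (0.0959).

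Across all members, 3 of 8 passed in citrus without the block, all lower in GFP+ cells (Hspa1a, Dnajb1 and Hspb1), and 0 of 8 passed in vehicle, where 3 had an unadjusted p under 0.05. Over all tested probe sets 18.2% passed in citrus (10.8% lower and 7.44% higher) and 19.0% in vehicle (9.97% lower and 9.05% higher). With the pool as a block, 4 of 8 members passed in citrus, all lower, beside 21.0% of all probe sets (11.5% lower and 9.52% higher). These 4 include Hspb1, whose signals lay within background, and the HSP70 pair, which is better read as 1 measurement. In vehicle 3 of 8 passed with the block, beside 21.7% of all: Hspa1a and Hspa1b were lower (background 10.7%) and Hspe1 was higher (background 11.0%). The median difference of the 8 members was -0.45 in citrus and -0.12 in vehicle, against 0.13 and 0.11 over all tested probe sets.

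Dnajb1 (chr8:83608175-83612653) is the J-domain co-chaperone that hands substrates to HSP70 and triggers its ATP hydrolysis. It was at 9.27, 9.50, 9.27 and 9.38 in citrus GFP+ cells, against 10.26, 10.07, 9.61 and 10.95 in citrus GFP- cells. The 2 gates did not overlap in citrus, as was true in the lower direction of 11.0% of all probe sets. It fell in citrus GFP+ cells, with a difference of -0.87 ± 0.25 and an adjusted p of 0.0213 (0.0121 with the pool as a block, limma). In vehicle it was at 9.37, 9.56, 8.99 and 9.75 in GFP+ cells, against 9.30, 9.85, 9.77 and 10.28 in GFP- cells, and these groups overlapped. In vehicle 9.96% of all probe sets were lower without overlap. In vehicle GFP+ pool 3 Dnajb1 was under the control percentile, so the difference of that pool is limited by background. The vehicle difference was -0.38 ± 0.25 (adjusted p = 0.325, and 0.223 with the block), and GFP+ was lower in 7 of 8 pools over both stimuli, vehicle pool 1 being the exception. The citrus call without the block was lost without citrus pool 1 (adjusted p = 0.0838), without citrus pool 4 (0.134) and with arrays centred on their median (0.0723), and with the block it was lost without citrus pool 4 (0.0687).

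Hspb1 (chr5:135887919-135889563) encodes the small heat shock protein HSP27, known as HSP25 in mice, which holds unfolding proteins without using ATP. Its signals within background were 3.36, 3.51, 3.26 and 3.67 in citrus GFP+ cells, against 4.01, 4.14, 4.07 and 4.94 in citrus GFP- cells. In vehicle they were 3.21, 4.14, 3.29 and 3.71 in GFP+ cells, against 3.69, 4.13, 3.85 and 4.94 in GFP- cells. The gates did not overlap in citrus and overlapped in vehicle. The difference was -0.84 ± 0.27 in citrus, with a limma adjusted p of 0.0403 (0.0103 with the pool as a block), and -0.56 ± 0.27 in vehicle, with 0.170 (0.0632 with the block). Without the block, the citrus call was lost on leaving out any of the 4 citrus pools (adjusted p = 0.0766 to 0.153) and with arrays centred on their median (0.108). With the block it was lost without citrus pool 4 (0.0633).

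Hsph1 (chr5:149616843-149636498) encodes HSP110, which frees ADP from HSP70 and works with it on aggregates. It was at 11.12, 9.94, 9.82 and 10.23 in citrus GFP+ cells, against 11.12, 9.82, 9.75 and 10.63 in citrus GFP- cells. In vehicle it was at 9.84, 9.97, 9.85 and 10.00 in GFP+ cells, against 9.58, 9.39, 9.86 and 9.64 in GFP- cells. Both gates of citrus pool 1 stood above every other array, and the gates overlapped in both stimuli. The gate difference was -0.06 ± 0.29 in citrus (adjusted p = 0.919) and 0.30 ± 0.29 in vehicle (adjusted p = 0.528, limma). The HSP90 co-chaperone genes Chordc1 and Ahsa2, picked out after their values were seen, were also high in citrus pool 1, where Chordc1 was at 10.44 in GFP+ and 10.33 in GFP- cells and Ahsa2 at 10.37 in GFP+ and 10.44 in GFP- cells. Chordc1 was as high in 1 more array, citrus GFP+ pool 4 (10.33).

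Hsp90aa1 (chr12:110691036-110696395), the inducible alpha form of cytosolic HSP90, which matures kinases and steroid receptors, varied least. It was at 16.35, 16.24, 16.13 and 16.15 in citrus GFP+ cells, against 15.97, 16.35, 15.94 and 16.17 in citrus GFP- cells, and at 16.28, 16.07, 15.95 and 15.89 in vehicle GFP+ cells, against 16.02, 15.74, 16.03 and 15.79 in vehicle GFP- cells. The gates overlapped in both stimuli. The gate difference was 0.11 ± 0.14 in citrus (adjusted p = 0.649) and 0.15 ± 0.14 in vehicle (adjusted p = 0.519), neither past limma's threshold.

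Hspd1 (chr1:55077833-55088243) and Hspe1 (chr1:55088148-55091317) encode HSP60 and HSP10, the barrel and the lid of the mitochondrial folding chamber. Hspd1 was at 12.07, 11.51, 11.64 and 11.61 in citrus GFP+ cells, against 11.98, 11.24, 11.65 and 11.89 in citrus GFP- cells, and at 11.74, 11.89, 11.74 and 11.50 in vehicle GFP+ cells, against 11.60, 11.42, 11.61 and 11.32 in vehicle GFP- cells. Its difference was 0.02 ± 0.18 in citrus (adjusted p = 0.965) and 0.23 ± 0.18 in vehicle (adjusted p = 0.406, limma). Hspe1 was at 9.95, 9.83, 9.92 and 10.05 in citrus GFP+ cells, against 9.75, 9.58, 9.84 and 10.23 in citrus GFP- cells, and at 10.22, 10.11, 10.15 and 9.76 in vehicle GFP+ cells, against 9.56, 9.31, 9.86 and 9.60 in vehicle GFP- cells. In vehicle, both genes were higher in GFP+ cells in each of the 4 pools, although the groups of arrays overlapped. Of all probe sets, 24.1% were higher in GFP+ cells in all 4 vehicle pools. A further criterion that neither gene met, higher in all 8 pools, held for 13.5%, and 10.9% in vehicle and 11.7% in citrus were higher without overlap. Hspe1 had a vehicle difference of 0.48 ± 0.16 (limma's adjusted p = 0.0522) that passed with the pool as a block (0.0458). That call was kept in 1 of 8 fits with a pool left out, the fit without vehicle pool 4. In the fits without a citrus pool, Hspe1 kept the same vehicle difference by construction. Its citrus difference was 0.08 ± 0.16 (adjusted p = 0.767).

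**Figure D2:**
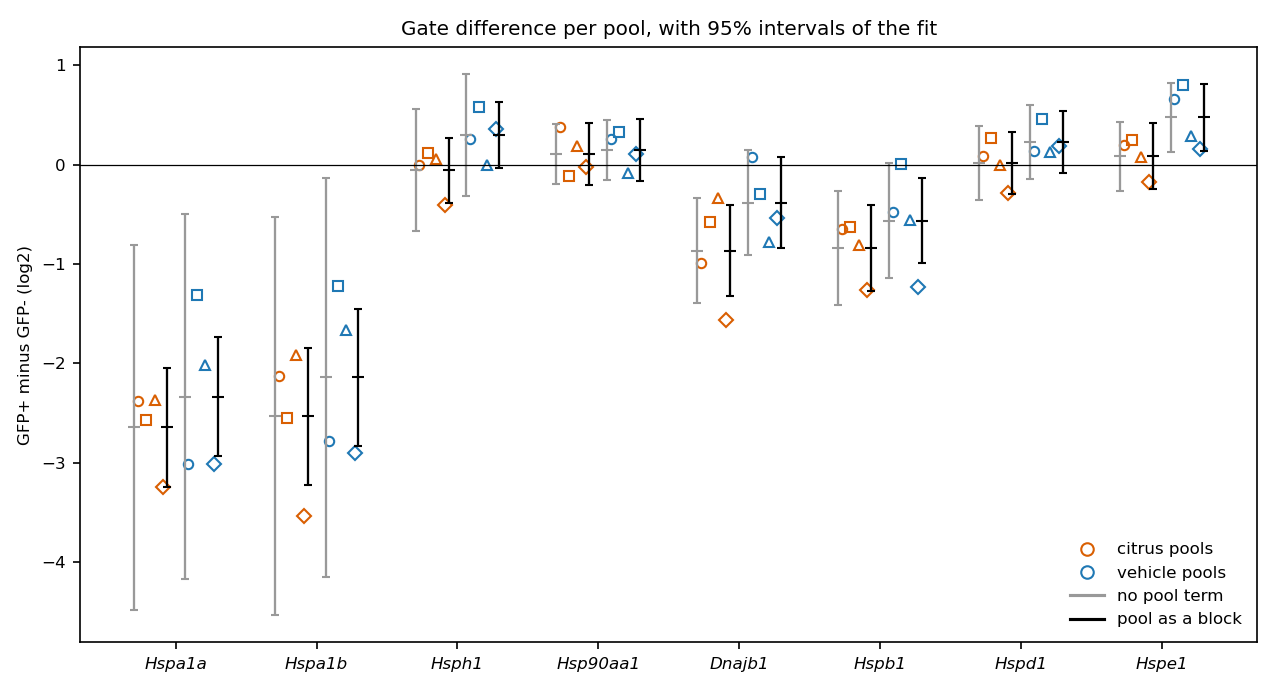
Log2 difference GFP+ minus GFP- of the 8 members in citrus and in vehicle. Points are the 4 pools of a stimulus, and bars are the model's 95% intervals, grey with no term for the pool and black with the pool as a block. The black bars of Hspa1a and Hspa1b lie below 0 in both stimuli and are much shorter than the grey ones, while the bars of Hsph1, Hsp90aa1 and Hspd1 span 0.

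The scale on which arrays are compared moved every gate difference. Centring each array on its median raised all differences by 0.33 in citrus and 0.28 in vehicle, and centring on mature OSN markers lowered them by 0.45 in citrus and 0.38 in vehicle. Calls over all probe sets, 1457 higher and 2112 lower in citrus, became 9128 higher and 1711 lower with the median and 485 higher and 4573 lower with the OSN markers. In vehicle, 1771 higher and 1952 lower became 7080 and 1555 with the median, and 476 and 3827 with the OSN markers. Hspa1a and Hspa1b kept their direction under both centrings, the difference of Hspa1a spanning -2.32 to -3.09 in citrus and -2.06 to -2.71 in vehicle, and so did Dnajb1. For Hsp90aa1 and Hspd1 the OSN centring turned the sign in both stimuli, for Hspe1 it did so in citrus and for Hsph1 in vehicle, and the median centring turned the citrus sign of Hsph1, so no gate direction is settled for Hsph1, Hsp90aa1 and Hspd1, nor for Hspe1 in citrus. In vehicle Hspe1 kept its sign under both. With the median centring Hsp90aa1 passed as higher in GFP+ cells in citrus (0.43, limma's adjusted p = 0.0220) and in vehicle (0.43, adjusted p = 0.0270). So did Hspe1 in citrus (0.41, limma's adjusted p = 0.0415) and in vehicle (0.76, adjusted p = 0.00184), and Hspd1 in vehicle (0.51, adjusted p = 0.0301). These are 2 of 8 members in citrus and 3 of 8 in vehicle, beside 9128 and 7080 of all 19572 probe sets. With that centring 1 member passed as lower in citrus. With the OSN centring 4 of 8 members passed as lower in citrus and 2 of 8 in vehicle. Over all 19572 probe sets the OSN centring gave 4573 and 3827 lower calls.

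Citrus and vehicle were compared within each gate, which asks whether intermittent odorant changed the chaperones. No member passed. Over all probe sets 0.0204% were called in GFP+ cells (4 probe sets, all higher) and 0.0153% in GFP- cells (3, of which 0.0102% were higher and 0.00511% lower), and at an unadjusted p under 0.05 the count of members was 0 in GFP+ cells and 1 in GFP- cells. The arrays of the stimuli overlapped for all 8 members in both gates. Over all probe sets, 1.47% were higher in citrus without overlap and 1.26% lower in GFP+ cells, and 1.26% higher and 1.57% lower in GFP- cells. Hspa1a averaged 11.95 ± 1.30 in citrus and 10.82 ± 1.52 in vehicle GFP+ cells (SD, n = 4 each), a difference of 1.12 with a 95% interval of -0.72 to 2.96. In GFP- cells it averaged 14.59 ± 1.55 in citrus and 13.16 ± 1.45 in vehicle, a difference of 1.43 with an interval of -0.41 to 3.26. These intervals are wide, and a change of several fold in either gate was not detectable with 4 pools per stimulus. Hsph1 in GFP- cells was the 1 with an unadjusted p under 0.05 (difference 0.72 ± 0.29, 95% interval 0.10 to 1.33, limma's adjusted p = 0.824), and it averaged 10.33 ± 0.66 in citrus and 9.62 ± 0.19 in vehicle GFP- cells. Without citrus pool 1, or any other single pool, its difference lay between 0.45 and 0.91. Of the steadier members, Hsp90aa1 had intervals of -0.13 to 0.47 in GFP+ and -0.09 to 0.52 in GFP- cells, and Hspd1 of -0.38 to 0.36 in GFP+ and -0.17 to 0.57 in GFP- cells. The median difference of the members was 0.08 in GFP+ and 0.35 in GFP- cells, against 0.01 over all probe sets in both.

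The effect of citrus on the gate difference itself, citrus minus vehicle, was past the threshold for 0 of 8 members and 0% of all probe sets with limma, and 0 members had an unadjusted p under 0.05. With the pool as a block it was 0 members and 0.00511% of all. Dnajb1, called between the gates in citrus and not in vehicle, had an estimate of -0.49 ± 0.36 (95% interval -1.23 to 0.26), and Hspb1 of -0.28 ± 0.39. Hspe1 had the estimate nearest to the threshold, -0.39 ± 0.23 (adjusted p = 0.999). Hspa1a had -0.31 with an interval of -2.90 to 2.29, so a difference between the stimuli in its gate contrast is not shown.

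The members differed widely in how much they varied between arrays of one group. The residual SD within groups was 1.46 for Hspa1a and 1.59 for Hspa1b, larger than in 99.9% of tested probe sets, whose median was 0.29. It was 0.46 for Hsph1, 0.42 for Hspb1, 0.38 for Dnajb1, 0.23 for Hspd1, 0.21 for Hspe1 and 0.16 for Hsp90aa1, the last being larger than in 4.68% of probe sets. Hspa1a ranged over 7.42 log2 units, the lowest array being vehicle GFP+ pool 1 (8.61) and the highest citrus GFP- pool 4 (16.03). The 2 gates of a pool lay on the same side of their group means in 7 of 8 pools for Hspa1a and Hspa1b, vehicle pool 2 being the exception, as in at least 7 pools for 9.1% of all probe sets. This was so in 6 of 8 pools for Dnajb1, Hspb1 and Hspd1 (at least 6 for 26.1% of all), 5 for Hsph1 and 4 for Hsp90aa1 and Hspe1, the median over all probe sets being 4. Over the 16 arrays with group means removed, Hspa1a correlated with Dnajb1 at r = 0.68 and with Hspb1 at 0.69, Dnajb1 with Hspb1 at 0.79 and Hsph1 with Hspd1 at 0.77, while Hspa1a and Hspd1 were at 0.01. These are descriptions over arrays that share 8 pools.

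**Figure D3:**
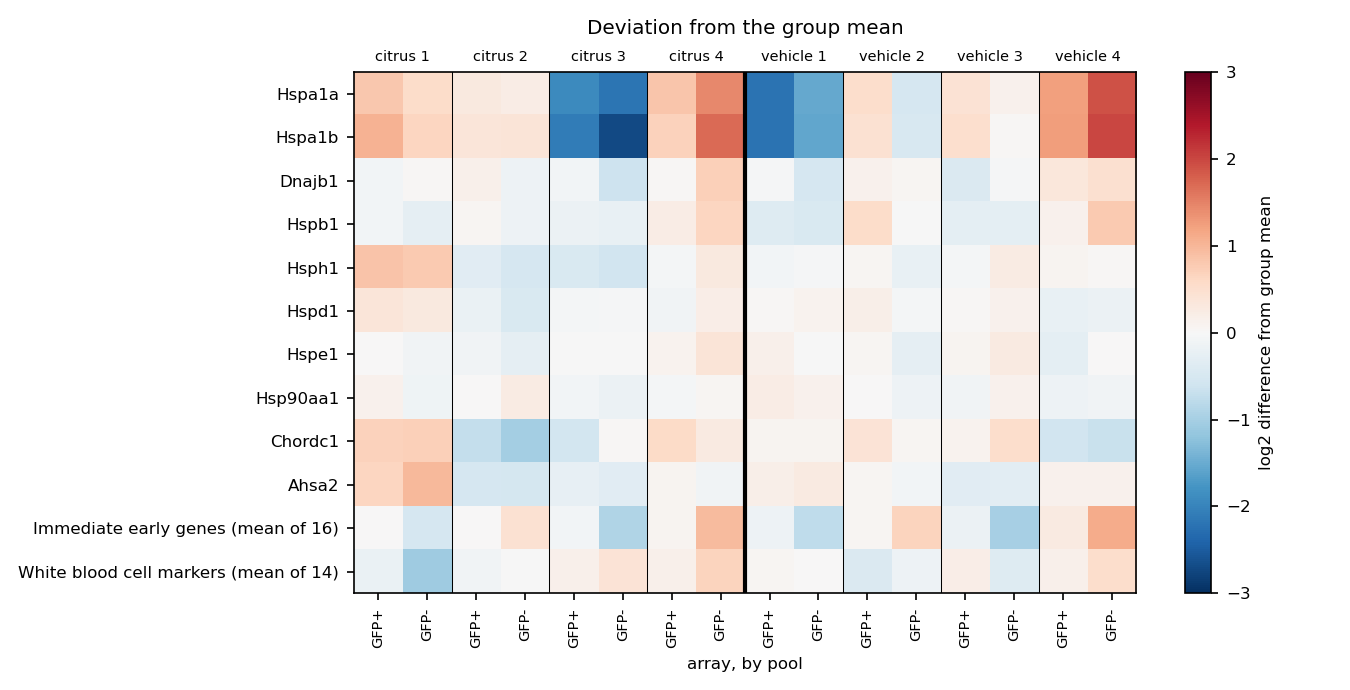
Deviation of each array from its group mean (log2, colour) for the 8 members, Chordc1, Ahsa2, the mean of 16 immediate early genes and the mean of 14 white blood cell markers, with arrays ordered by pool. The strongest colours are in the rows of Hspa1a and Hspa1b, mostly with 1 sign in both gates of a pool, and citrus pool 1 stands out in Hsph1, Chordc1 and Ahsa2.

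Markers of other cell types and immediate early genes also differed between the gates. Of 16 immediate early genes, which are induced within minutes in stressed or stimulated cells, 9 fell in GFP+ cells in each stimulus and 0 rose. Over all probe sets 10.8% were lower in citrus and 9.97% in vehicle. On every GFP+ array 10 of the 16 in citrus and 11 in vehicle were under the 95th percentile of control probes. On every GFP- array 3 in citrus and 4 in vehicle were, so these differences are limited by background. The mean of the 16 genes was 7.43 to 7.58 on citrus GFP+ arrays and 8.86 to 10.72 on citrus GFP- arrays. In vehicle it was 7.11 to 7.54 on GFP+ arrays and 8.37 to 10.48 on GFP- arrays. In GFP- cells of pools 1 to 4 this mean was 9.26, 10.23, 8.86 and 10.72 in citrus and 8.60, 10.04, 8.37 and 10.48 in vehicle. Pool 4 was the highest of each stimulus for this mean, as it was for Hspa1a in GFP- cells. Pool 3 was the lowest of each stimulus for this mean, which was so for Hspa1a in citrus and not in vehicle, where pool 1 was its lowest.

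Of white blood cell markers, 14 of 14 fell in GFP+ cells in both stimuli, their mean being 5.21 to 5.58 on citrus GFP+ and 10.55 to 12.30 on citrus GFP- arrays, and 5.07 to 5.71 on vehicle GFP+ and 11.19 to 12.12 on vehicle GFP- arrays. On GFP+ arrays 13 of the 14 in citrus and 12 of the 14 in vehicle were under the 95th percentile of control probes on every array. Microvillous cell markers fell in 11 of 11 cases in both stimuli, and those of horizontal basal cells in 1 of 8 in both. In citrus 7 of 12 markers of immature OSNs fell, 6 of 6 of globose basal and cycling cells, 4 of 11 of sustentacular cells and 5 of 11 of Bowman glands. In vehicle these counts were 6 of 12, 5 of 6, 3 of 11 and 3 of 11. The shares of lower calls over all probe sets were 10.8% in citrus and 9.97% in vehicle. Both erythroid markers fell, and 0 of 7 endothelial and 0 of 6 stromal markers passed. All 7 endothelial and all 8 horizontal basal markers were under the control percentile on every array. So were all 6 stromal markers outside citrus GFP- cells, where 5 were. The counts of these 3 types therefore cannot show whether such cells differed between the gates. All 11 microvillous markers were under that percentile on every GFP+ array, as were 7 of them on every GFP- array. In each stimulus 5 of 12 immature OSN, 5 of 6 globose basal, 8 of 11 sustentacular and 7 of 11 Bowman gland markers were under it on every GFP+ array. On every GFP- array the counts were 1, 4, 6 and 5 in each stimulus. Both erythroid markers were under it on every GFP+ array. The differences of such markers are limited by background. The part of any of these cell types, or of a response to dissociation, in the lower Hspa1a and Hspa1b of GFP+ cells was not tested. In such bulk samples fewer cells of a type and less RNA per cell cannot be told apart.

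The genes whose pattern was most like that of the inducible members were found by Pearson correlation with the mean of Hspa1a, Hspa1b, Hsph1, Hsp90aa1 and Dnajb1, each centred, a mean that the HSP70 pair dominates through its larger range. Over the 16 arrays with group means removed they were Srsf10, a splicing regulator (r = 0.90), Akirin2, a nuclear adaptor (0.89), Arih1, a ubiquitin ligase (0.88), Ldlrad2 (0.87) and Sp3, a transcription factor (0.87). On the levels themselves they were Sp3 (0.91), Egr3, an immediate early transcription factor (0.86), Ccnl1, cyclin L1 (0.84), Ctla4, an inhibitory receptor of T cells (0.83), and Ppp2cb, a catalytic subunit of phosphatase 2A (0.83). The arrays share pools, and the part of cell types in these correlations was not tested.

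The wider chaperone network was read from 89 other genes in 9 lists, of which 82 were measured. In citrus 7 were higher in GFP+ cells, 3 lower and 72 not past the threshold, with a median difference of 0.19 against 0.13 over all probe sets. In vehicle 13 were higher, 2 lower and 67 not past it, with a median of 0.21 against 0.11. Taken over both directions, these shares are not larger than the 18.2% and 19.0% of all probe sets called. By direction, 7.44% of all probe sets were higher and 10.8% lower in citrus, and 9.05% higher and 9.97% lower in vehicle. The network's share of higher calls lay above that background in vehicle and near it in citrus. Its share of lower calls lay under the background in both. The balance of higher and lower moves with the centring described above.

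The strongest member of the network was Fkbp5, an HSP90 co-chaperone of steroid receptors that glucocorticoids induce. It was under the percentile of control probes on all 4 GFP+ arrays of each stimulus and above it on all GFP- arrays, so its fold is a bound, taken against that percentile on the GFP+ arrays. Fkbp5 was at least 3.45-fold lower in GFP+ cells in citrus (measured means 8.36 in GFP+ and 10.75 in GFP- cells, adjusted p = 1.26e-05) and at least 2.05-fold lower in vehicle (8.69 in GFP+ and 10.38 in GFP- cells, limma's adjusted p = 0.000576). Of 13 HSP90 co-chaperones measured, the other call was Nudc, higher in vehicle (0.53 ± 0.14). Of 20 J-domain proteins, 4 rose in GFP+ cells in each stimulus and 0 fell. Of all probe sets 7.44% rose in citrus and 9.05% in vehicle. With the pool as a block 7 of the 20 rose in citrus and 5 in vehicle, beside 9.52% and 11.0% of all. Dnajb11, a co-chaperone of the endoplasmic reticulum, rose by 0.58 ± 0.12 in citrus and 0.53 ± 0.12 in vehicle, and Dnajb13, a protein of motile cilia, by 0.65 ± 0.18 in citrus and 0.58 ± 0.18 in vehicle. Dnajb14, a membrane J-domain protein, rose in citrus (0.48 ± 0.15) and Dnajb4 in vehicle (0.55 ± 0.13).

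Of 9 exchange factors of HSP70, Hspbp1 rose in citrus (0.50 ± 0.15) and in vehicle (0.52 ± 0.15), and Grpel2, a mitochondrial one, in vehicle (0.59 ± 0.19), on signals that averaged 6.93 to 7.51 and lay below the percentile of control probes. Of 11 other HSP70 and HSP110 genes, Hspa5, the chaperone BiP of the endoplasmic reticulum, rose in vehicle (0.41 ± 0.14). Hspa1l also passed in vehicle (0.80 ± 0.18) and Hspa12a in citrus (0.73 ± 0.23), both on signals below that percentile. Of 8 chaperonin subunits, Cct3 rose in vehicle (0.62 ± 0.16), and calls of Cct7 in vehicle (0.74 ± 0.20) and Cct6b in citrus (0.72 ± 0.21) again lay below the percentile. The calls among the 9 other small heat shock proteins did so as well: Hspb8 (-1.37 ± 0.30) and Cryab (-0.77 ± 0.20) in citrus, and Hspb11 (1.14 ± 0.21) and Hspb2 (0.56 ± 0.19) in vehicle. So did Serpinh1, a collagen chaperone and HSF1 target, in vehicle (-0.56 ± 0.19). With the pool as a block the vehicle calls of Grpel2 (adjusted p = 0.0740), Hspa5 (0.0550) and Hspb2 (0.0604) were lost. The heat shock factor genes Hsf2, Hsf4 and Hsf5 and the gene of the HSF1-binding protein, Hsbp1, did not pass in either stimulus with limma (0 of 4), where 1 of the 4 had an unadjusted p under 0.05 in citrus and 0 in vehicle. Hsf1 itself matched no symbol in the table and is not analysed here. Between citrus and vehicle 0 of 82 passed in either gate, with an unadjusted p under 0.05 for 2 in GFP+ and 9 in GFP- cells. In the promoter windows of 72 of these genes, 3 heat shock units were found in 2, Dnajb6 and Chordc1.

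**Figure D4:**
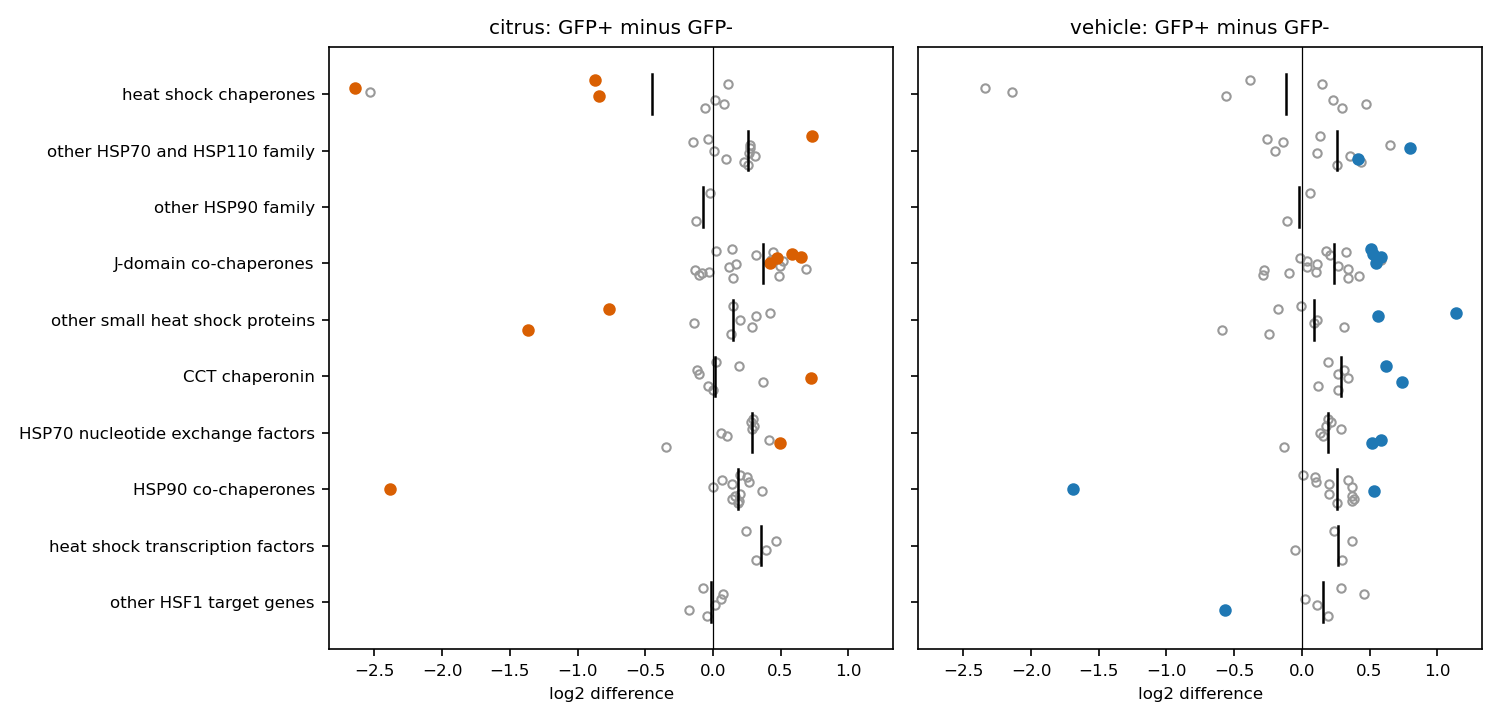
Log2 difference GFP+ minus GFP- of the members and of the 9 wider chaperone lists, citrus at left and vehicle at right. Each point is 1 gene, filled where it passed the adjusted p threshold of 0.05, and black bars are list medians. Most points lie within 1 log2 unit of 0, and Hspa1a, Hspa1b and Fkbp5 lie lowest in both stimuli.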

How the data were processed

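RNA of sorted olfactory mucosa cells was measured on 16 arrays, from 50 to 100 ng of total RNA each per the labels' protocols. The authors deposited log2 values for 28846 probe sets. Per the submitters' processing notes the software was Affymetrix Expression Console, with its version and a genome build not given in the sources used here. One title names SST-RMA, whose transformation can stretch the scale. Values were used as deposited. The platform annotation gave 1 symbol to 19572 probe sets, which were tested, several to 0 and none to 2634, and 6640 were controls. Entrez identifiers of all 19572 were found in a current gene table, and 0 symbols changed. A symbol with several probe sets was represented by the one with the highest mean. Arrays have no read depth, and their number limits the precision.

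The test was limma's (version 3.58.1, under R 4.3.3): 1 mean per group, 1 spread per probe set over all 16 arrays, two-sided, Benjamini-Hochberg over 19572 probe sets, threshold 0.05, for 5 comparisons. Arrays of a group are separate pools of mice per the labels. Errors beside differences are standard errors unless said to be SD. Same-numbered arrays of the 2 gates were taken as the same mice: after group means were removed they correlated at 0.075 to 0.275, above 0.1 in 6 of 8 pools, and fits with the pool as a block stand beside results they change. No batch could be tested, since the labels give all arrays one code. The fits were tested on simulated data. Alternatives were the pool as a fixed or random block, each pool left out, 2 centrings, a filter on dim probe sets and a trended prior.

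The members, the wider lists and the naming rule were chosen with earlier results of these data known. Named were all members, up to 3 genes per wider list with the largest difference among those past the threshold in a comparison, and 5 genes by likeness under each of 2 measures. Promoter sequences are RefSeq's (GRCm38.p6). Plots used matplotlib 3.10.9 and Python 3.11.15.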

Additional observations from a re-analysis of the deposited data

Results flagged for a closer look

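The signal of Hspb1 in citrus GFP- pool 4 was 4.94, while the other 3 citrus GFP- arrays lay between 4.01 and 4.14, so its gap to the nearest array was 0.859 of the group's range, above Dixon's critical value for 4 samples. This signal is under the 95th percentile of control probes. It was the 1 flag among 32 groups of 4 arrays examined (8 members in 4 groups), and chance gives about 1 in 20.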

How the results depend on the processing

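The gate difference of Hspa1a, Hspa1b, Dnajb1 and Hspb1 kept its sign under every alternative run in both stimuli. The replicate block changed which members passed, as given with each gene: for Hspa1a in vehicle, for example, the adjusted p was 0.0710 without it and 0.000101 with the pool as a block. A fixed block cannot estimate citrus against vehicle, because no pool received both stimuli. With the pool as a random block, no member's call between citrus and vehicle changed. Neither block changed a member's call in the effect of citrus on the gate difference. Counts over all probe sets depended on the setting. For GFP+ against GFP- cells in citrus, 3569 became 10839 with median centring and 1564 with probe sets above control probes only, and leaving out a pool gave 2477 to 3672. In vehicle, 3723 became 8635 with median centring and 2012 with that filter, and 2369 to 3675 with a pool left out, vehicle pool 4 giving the lowest and vehicle pool 2 giving 2466. For citrus against vehicle in GFP+ cells 4 became 2 with that filter. For the effect on the gate difference, 0 became 1 with the pool as a fixed block, 1 as a random block, 1 with OSN centring, 1 with a trended prior and 0 to 1 with a pool left out.

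Signs turned for differences that had not passed. OSN centring gave Hsph1 -0.077, Hsp90aa1 -0.23 and Hspd1 -0.15 in vehicle, and Hsp90aa1 -0.34, Hspd1 -0.43 and Hspe1 -0.36 in citrus, and median centring gave Hsph1 0.27 in citrus and Hsp90aa1 0.0026 for the effect on the gate difference. With a pool left out, the citrus gate difference spanned -0.069 to 0.12 for Hspd1 and -0.11 to 0.060 for Hsph1. In the block fits it was -0.0081 for Hspd1 without citrus pool 1, -0.069 without citrus pool 2, and 0.060 for Hsph1 without citrus pool 4. Citrus minus vehicle in GFP+ cells spanned -0.13 to 0.054 for Hspd1, -0.27 to 0.045 for Hspb1 and -0.20 to 0.049 for Dnajb1, and in GFP- cells -0.080 to 0.40 for Hspb1. The effect on the gate difference spanned -0.13 to 0.033 for Hsp90aa1 and -0.53 to 0.038 for Hspa1a. The cause was not tested. Signal over background limits Hspb1 on all arrays, and 4 pools per stimulus limit the comparison of citrus with vehicle.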
